A study of Ovis aries with 18 samples.

Results

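GSTP1 and GSTM3, a pi class and a mu class glutathione transferase, were followed allele by allele in perirenal adipose tissue of 18 fetal lambs, 16 female and 2 male. The genes were picked by symbol, with earlier results on the allele reads of this series in view. All SNPs listed under either symbol were taken, which gave 15 SNPs in GSTP1 and 1 SNP in GSTM3, of 24355 SNPs in 5810 genes. All animals were wild type, pure bred merino fetuses without any treatment, sampled at 132 days of gestation. The fetuses shared a sire and the ewes were unrelated, according to the methods of the study. For each SNP and animal the data hold the number of RNA-Seq reads with the base of the Oar v3.1 genome, called the reference allele, the number with the alternate allele, and a genotype call made from the same reads. The reference share is the reads with the reference allele divided by the reads with either allele, so an equal share is 0.5, or 50%.

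Glutathione transferases join the tripeptide glutathione to reactive, electrophilic compounds, which are then exported from the cell or broken down. Substrates include aldehydes made when the lipids of membranes and fat droplets are oxidised. The cytosolic enzymes work as dimers and are grouped into classes by sequence, of which pi (GSTP1) and mu (GSTM3) are separate classes. GSTP1 is also known as an inhibitor of the stress kinase JNK. Perirenal fat of the late fetal lamb is a brown adipose depot, rich in mitochondria and in lipid.

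Reads counted over all SNPs ranged from 2970824 to 5334585 per animal, and had a median of 4486796. One animal labelled female, RS929, was called heterozygous at 29.1% of the 244 SNPs on chromosome X, close to the males (25.4% and 32.4%), whereas the 15 other females lay between 54.1% and 69.7%. Of the 4 sex comparisons below, the 3 that include it were also run without it and kept their direction and their side of the unadjusted threshold. It is homozygous at the GSTM3 SNP and takes no part in the comparison of GSTM3 shares. As a check of the tissue, 4 of 6 brown adipocyte genes examined had SNPs in the table, UCP1, the uncoupling protein of brown fat mitochondria, with 6213 to 18423 reads per SNP in every animal, and so did 3 of 6 general adipocyte genes, among them ADIPOQ, which encodes adiponectin, with 7966 to 13189. The lane of each library was not in the labels used here, so lanes could not be compared.

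The 15 GSTP1 SNPs lay on chromosome 21 of Oar v3.1 within 2078 bp, in 2 blocks that were 1924 bp apart. A block is a run of SNPs with gaps of no more than 100 bp, the length of a read, so that most reads at neighbouring SNPs of a block are the same reads. The substitutions are written as the reference base, the position on chromosome 21 and the alternate base. The first block held 4 SNPs within 4 bp, which are given because adjoining bases changed together.
First block: A44692877G, C44692878T, C44692879T, G44692881A
The first 2 and the last were annotated as missense, the last also as a splice region variant, and C44692879T as synonymous. The second block held 11 SNPs within 150 bp, from C44694805T to T44694955G, of which 5 were annotated as missense and 6 as synonymous, so all 15 were coding. Missense SNPs made up 8 of the 15, against 20.9% of all SNPs in the table. Another SNP lay within 5 bp at 10 of the 15, against 10.4% of all SNPs.

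In the first block of GSTP1 most reads carried the alternate base, and this held in each of the 18 animals. At C44692878T the reference reads ranged from 10 to 40 per animal with a median of 20.5, and the alternate reads from 119 to 247 with a median of 194. No animal approached an equal number of reads. The lowest reference share was 4.85% in RS933 (95% Wilson interval 2.66% to 8.70%) and the highest was 16.6% in RS903 (12.2% to 22.2%). These intervals cover counting error only, since reads copied from one molecule could not be recognised. Over the animals called heterozygous the mean reference share was 0.120 ± 0.0243 (SD, n = 13) at A44692877G and 0.115 ± 0.0257 (SD, n = 15) at G44692881A. Such low shares were uncommon, as the lower allele held less than 15% of the summed reads at 1.34% of all tested SNPs. The spread between animals depended on which animals were counted. The dispersion, the Pearson chi-square over heterozygous animals divided by its degrees of freedom, was between 1.14 and 1.66 at the 4 SNPs, where 1 is counting error alone and the median of all SNPs was 1.41. Over all 18 animals, including those called homozygous, whose reference percentages were 4.35% to 8.49%, it was between 2.08 and 2.22.

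The genotype calls of this block differed where the reads did not. Within an animal the reference reads at the 4 SNPs differed by at most 3 and the alternate reads by at most 4, yet 4 of the 18 animals were called heterozygous at some of the SNPs and homozygous for the alternate allele at others. The remaining animals were called heterozygous at all 4 SNPs (13 animals) or homozygous at all 4 (1 animal, RS933). RS910 had 21 reference and 229 alternate reads at C44692878T and was called heterozygous there, and 20 and 229 reads at C44692879T, where it was called homozygous. RS953, with 17 reference and 200 alternate reads at C44692879T, was called heterozygous. The shares of both kinds of call overlapped. The reference percentage was 7.22% to 16.6% in the 60 animal and SNP pairs called heterozygous, and 4.35% to 8.49% in the 12 pairs called homozygous for the alternate allele. Those 12 pairs each held 9 to 23 reads of the reference allele. In called homozygotes with at least 20 reads, more than 1% of reads came from the other allele at 4 of the 5 GSTP1 SNPs with such animals, against 4.51% of all SNPs with such animals. These 4 are the SNPs of the first block, covered by largely the same reads, so they are not separate observations. At C44692878T the value rests on 1 animal, with 10 of 206 reads.

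**Figure D1:**
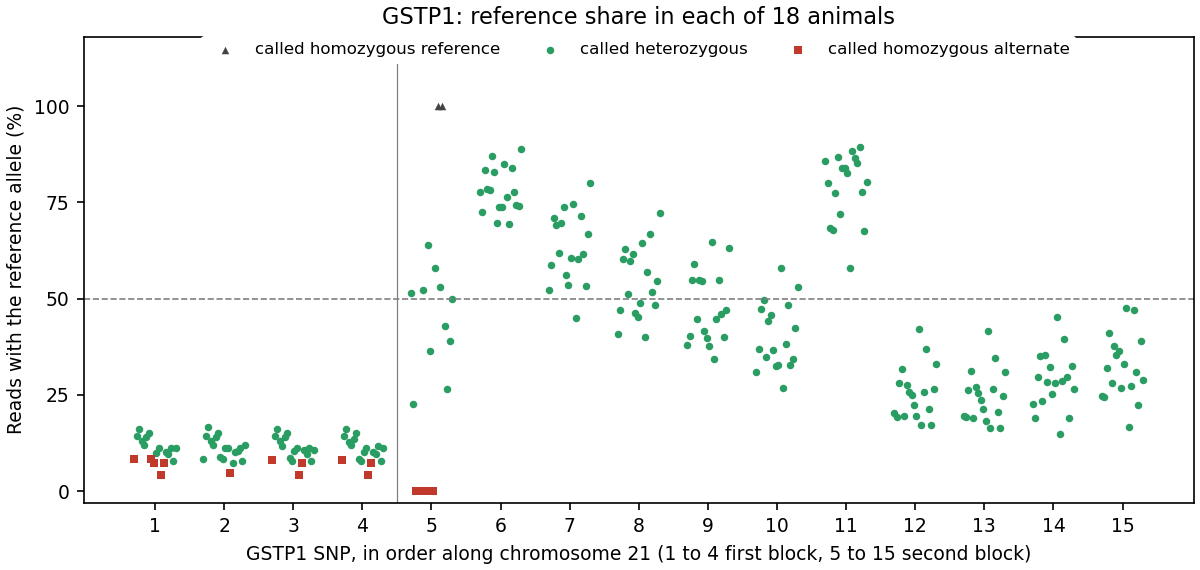
Percentage of GSTP1 reads with the reference allele (y axis) in each of the 18 animals at the 15 SNPs in order along chromosome 21 (x axis), 1 point per animal, coloured by genotype call. SNPs 1 to 4 lie between 4.35% and 16.6% for both kinds of call, SNP 5 has animals at 0% and 100%, and at SNPs 6 to 15 all 18 animals were called heterozygous.

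A single SNP of GSTP1 behaved as a heterozygous locus with clean homozygotes. At C44694805T, the first SNP of the second block, 2 animals were called homozygous for the reference allele and had 29 and 51 reads of it with none of the alternate. Another 5 were called homozygous for the alternate allele, with 32 to 62 reads and none of the reference. Over the 7 animals this was 0 of 323 reads. The 11 animals called heterozygous had a mean reference share of 0.451 ± 0.129 (SD, n = 11), from 22.6% in RS902 (7 of 31 reads, interval 11.4% to 39.8%) to 63.8% in RS920 (30 of 47 reads, 49.5% to 76.0%). The reference allele was the higher one in 5 of these animals, the alternate allele in 5, and RS969 had 28 reads of each. At the other 14 GSTP1 SNPs every animal had at least 5 reads of both alleles, which was so at 5.58% of all SNPs. In the calls, 10 of the 15 SNPs were heterozygous in all 18 animals, against 5.42% of all SNPs, and 13 of the 15 were heterozygous in 15 or more, against 9.89%.

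Along the rest of the second block the allele that was higher changed from SNP to SNP, and the mean number of reads changed more for the alternate allele than for the reference allele. At G44694844C an animal had on average 39.9 ± 9.55 reference and 11.1 ± 3.83 alternate reads (SD, n = 18). At C44694866T, 22 bp on, the reference reads were 40.7 ± 11.6 and the alternate reads 60 ± 14.2. Over the 5 SNPs between and including these the mean of the reference allele stayed between 38.9 and 40.7 reads, whereas the alternate allele rose at each step, to 22.4, 33.5, 43.6 and 60 reads. At G44694883A the numbers were the other way round, with 108 ± 27.1 reference and 28.3 ± 11.5 alternate reads. At G44694903A the reference allele had 37.9 ± 10.7 reads and the alternate allele 112 ± 25.8. By the last SNP, T44694955G, these were 31.0 ± 9.57 and 65.1 ± 16.7 reads. Total depth rose from a mean of 51.0 reads at G44694844C to 149 at G44694903A. At the 9 SNPs of the last 10 other than G44694883A, the mean of the reference allele lay between 31.0 and 40.7 reads.

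**Figure D2:**
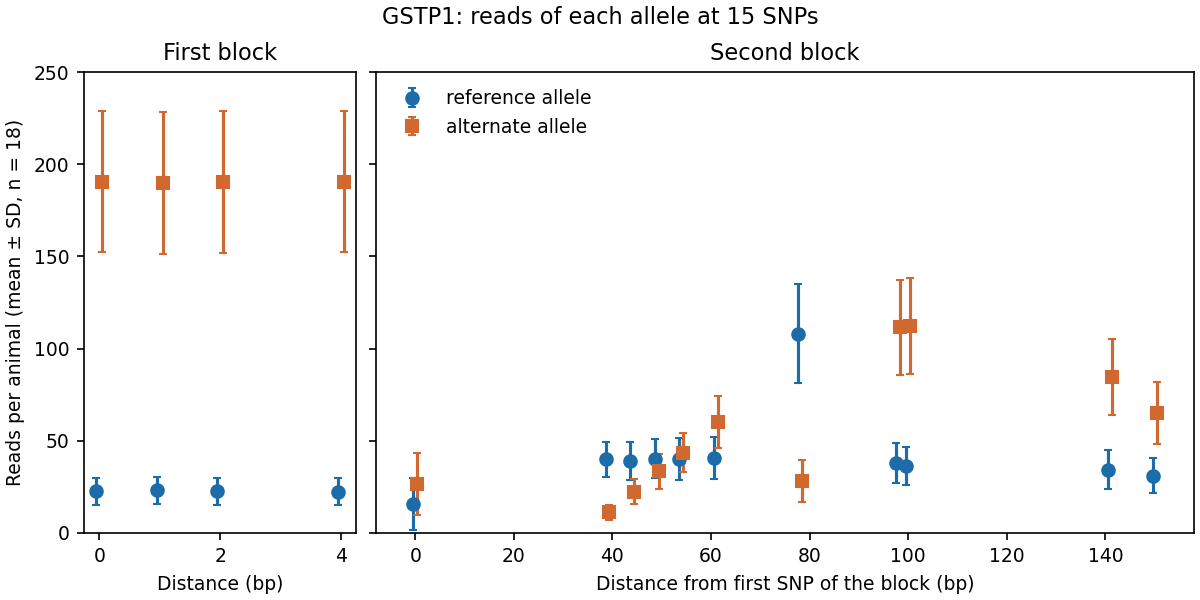
Mean reads per animal with the reference (circles) and alternate (squares) allele at the 15 GSTP1 SNPs (y axis, bars are SD, n = 18 animals) by distance in bp from the first SNP of each block (x axis). The first block sits near 22 reference and 190 alternate reads, while in the second block the reference allele is the higher one at 4 of 11 SNPs, with a mean of 108 reads at the SNP 78 bp from the start, and the alternate allele has its lowest mean at the second SNP, with 11.1 reads, and its highest, 112, at G44694905T.

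The summed reads passed the likelihood ratio test of the study at an unadjusted P under 0.05 at 13 of the 15 SNPs, 4 with the reference and 9 with the alternate allele higher. Of all 24244 tested SNPs 45.0% passed, 33.8% with the reference and 11.1% with the alternate allele higher. After Benjamini-Hochberg adjustment 13 also passed, against 38.0% of all SNPs, and so did 13 by a quasi-binomial F test, moderated with limma, that takes animals as replicates, against 34.3%. Because the gene was picked with this imbalance in view, these counts are a description. The higher allele was the same in all 18 animals at 6 SNPs of the second block, the reference allele at G44694844C and G44694883A and the alternate allele at the last 4. At G44694883A, the SNP of this block with the largest statistic, the reference reads ranged from 59 to 168 per animal with a median of 106 and the alternate reads from 12 to 48 with a median of 28. The mean share there was 0.790 ± 0.0884 and at G44694905T it was 0.246 ± 0.0673 (SD, n = 18). At C44694859T, by contrast, 7 animals had more reference and 11 more alternate reads, with a mean share of 0.478 ± 0.0929. By the Pearson chi-square test with Benjamini-Hochberg adjustment over all SNPs, 10 of the 15 SNPs were heterogeneous between animals, all of them in the second block, against 15.4% of all SNPs. Over all 18 animals, whatever their call, 14 of the 15 were, which takes in the 4 SNPs of the first block and leaves out G44694844C, so a contrast between the blocks rests on the genotype calls. In that setting 94.2% of all SNPs were heterogeneous, as homozygous animals enter. With the reads of each animal sampled down to 50, 1 of the 15 was, as were 1009 of all SNPs, against 3717 of all SNPs at full depth.

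RS930 stood at the edge of the second block. It had 59 reference and 43 alternate reads at G44694883A, the lowest reference share of any animal there (57.8%, interval 48.1% to 67.0%), and 48 and 66 reads at G44694903A, the highest reference share there (42.1%, 33.4% to 51.3%). RS933, the animal lowest in the first block, had 24 reference and 115 alternate reads at G44694903A (17.3%, 11.9% to 24.4%). Over the 13 animals called heterozygous at the deepest SNP of both blocks, A44692877G and G44694903A, the reference shares showed no detectable relation (Pearson r = -0.06, permutation p = 0.852; Spearman rho = -0.08, permutation p = 0.796). Without the 2 animals farthest from the median r was -0.09. With all 18 animals, whatever their call, r was 0.23 (permutation p = 0.360), and between the SNPs with the largest statistic, C44692878T and G44694883A, it was -0.34 (permutation p = 0.190).

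**Figure D3:**
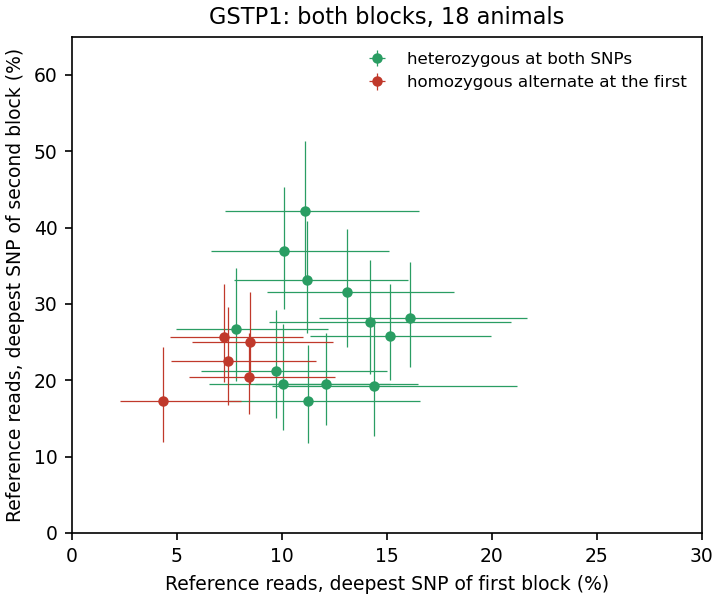
Percentage of reads with the reference allele at the deepest SNP of the first (x axis) and second (y axis) GSTP1 block in each of the 18 animals, with 95% Wilson intervals. The 13 animals heterozygous at both SNPs show no detectable relation (r = -0.06), and the 5 called homozygous at the first SNP lie between 4.35% and 8.49% there.

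In GSTM3 the imbalance was strong within animals but did not favour 1 allele. Its SNP, A86235350G on chromosome 1, was annotated as synonymous, and 9 animals were called heterozygous, 5 homozygous for the reference and 4 homozygous for the alternate allele. The calls were clean, as the 9 homozygous animals had 1 read of the other allele among 4751 reads. The alternate allele was higher in 4 heterozygous animals. RS953 had 141 reference and 508 alternate reads (21.7% reference, interval 18.7% to 25.1%), RS926 had 95 and 220 (30.2%, 25.4% to 35.4%), RS917 had 282 and 611 (31.6%, 28.6% to 34.7%) and RS903 had 123 and 194 (38.8%, 33.6% to 44.3%). The reference allele was higher in 2 animals. RS902 had 489 reference and 173 alternate reads (73.9%, 70.4% to 77.1%) and RS918 had 684 and 348 (66.3%, 63.3% to 69.1%). In the other 3 the interval held 50%. RS910 had 265 and 250 reads (51.5%, 47.1% to 55.7%), RS920 had 362 and 343 (51.3%, 47.7% to 55.0%) and RS943 had 224 and 210 (51.6%, 46.9% to 56.3%).

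The higher allele thus had 3.60 times the reads of the lower one in RS953 and 2.83 times in RS902, in opposite directions. Summed over the 9 animals, 2665 reference and 2857 alternate reads gave a reference share of 48.3%, so that sums hid most of what single animals showed. The likelihood ratio test on these sums passed at an unadjusted P of 0.00977, but the quasi-binomial F test moderated with limma gave an unadjusted P of 0.676. The mean share was 0.463 ± 0.172 (SD, n = 9). Without RS917 the summed share was 0.515 and without RS953 0.518, above an equal share. The dispersion between animals was 81.2, the 21st highest of 24205 SNPs, and it stayed between 63.2 and 92.6 when any single animal was left out. Heterogeneity was called at this SNP in each of those fits, with the 15.4% of all SNPs given above as its background. With a dispersion this high, leaving out a single animal could hardly have changed the call. Because the gene was picked with allele reads of this series in view, these values are a description.

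**Figure D4:**
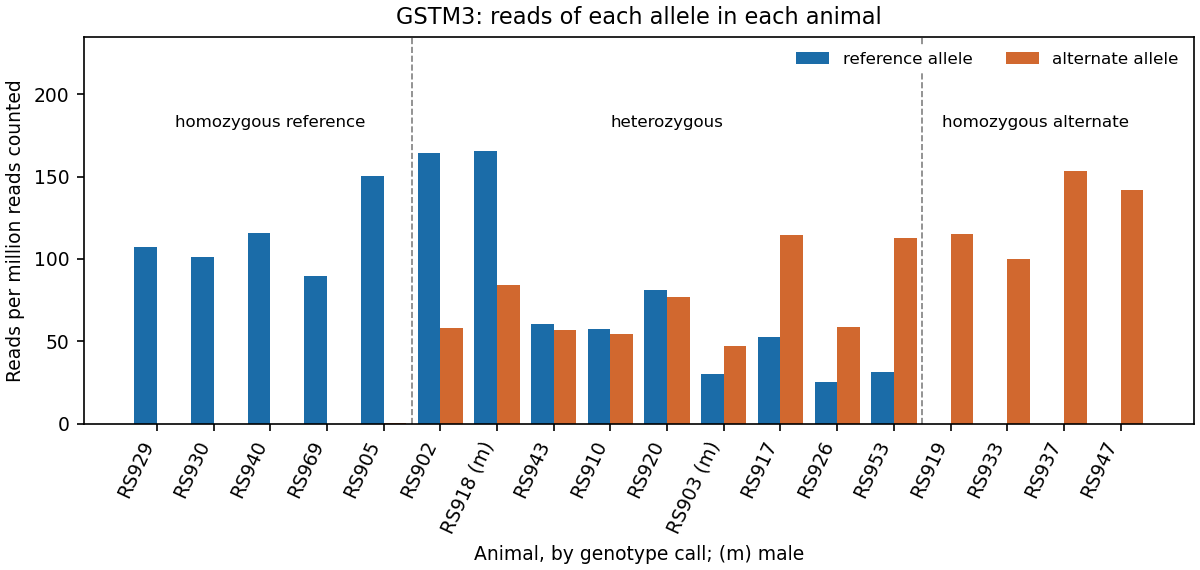
Reads of the reference and alternate allele of the GSTM3 SNP, in RPM, reads per 1000000 counted at all SNPs (y axis) in each of the 18 animals (x axis), grouped by genotype call and, within the heterozygous group, ordered by falling reference share; (m) marks the males. Among the 9 heterozygous animals, 2 have more reference reads, 3 have similar numbers and 4 have more alternate reads.

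The level of each allele was expressed as RPM, reads per 1000000 counted at all SNPs of the animal. The reference allele had 165 and 166 RPM in RS902 and RS918, where it was higher, and 25.4 to 52.9 in the 4 animals where the alternate allele was higher. The alternate allele had 58.2 and 84.4 RPM in RS902 and RS918, and 47.1 to 115 in the other 4. In the 3 animals with similar numbers both alleles lay between 54.1 and 81.0. The level of the reference allele therefore did not overlap between these sets, while that of the alternate allele did. Since the sets were formed from the same reads, this is a description. Total GSTM3 level did not separate the genotype calls, with 89.6 to 150 RPM in the 5 animals homozygous for the reference allele, 77.0 to 250.3 in the 9 heterozygous animals and 99.8 to 153 in the 4 homozygous for the alternate allele.

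GSTM3 varied widely in level between animals and GSTP1 little. The level of a gene is the mean over its SNPs of the reads with either allele, in RPM, and in a tissue sample fewer cells of a type and less RNA per cell cannot be told apart. GSTP1 ranged from 22.7 in RS930 through a median of 28.7 to 36.6 in RS920, a coefficient of variation of 12.9% over 18 animals. That was below the 15.5% median of the 5789 genes with a mean of at least 20 reads per SNP. GSTM3 ranged from 77.0 in RS903 through a median of 117 to 250.3 in RS918, with a coefficient of variation of 34.4%, the 222nd highest of these genes. Both extremes of GSTM3 were the 2 males, so all females lay between them. RS902, at 223, was the highest female and the remaining females lay at or below 167.

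**Figure D5:**
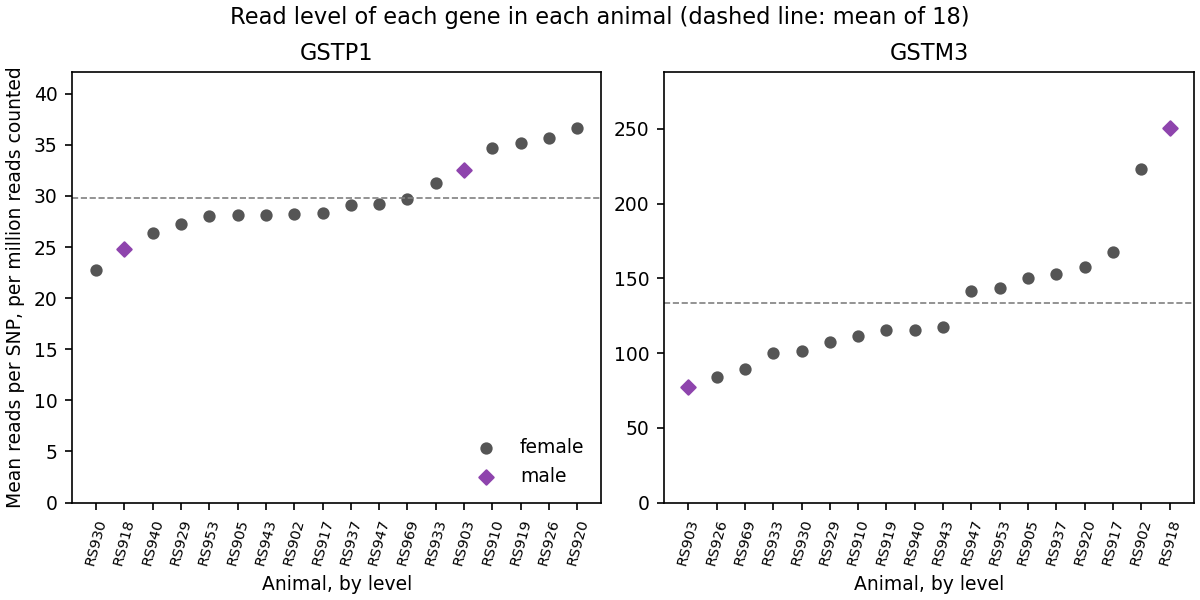
Level of GSTP1 (left) and GSTM3 (right) in each of the 18 animals (x axis, ordered by level), as the mean over SNPs in RPM (y axis). GSTP1 spans 22.7 to 36.6 and GSTM3 spans 77.0 to 250.3, with the males (diamonds) at both ends of GSTM3.

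Neither level differed detectably by sex. On the log2 scale males minus females was -0.06 for GSTP1 (exact permutation test, two-sided, 16 females and 2 males, p = 0.699) and 0.14 for GSTM3 (p = 0.699, same exact permutation test). At the deepest SNP of GSTP1 alone the difference was -0.26 (exact permutation p = 0.118). At C44692878T the reference share was 0.154 in the 2 males and 0.108 in the 15 heterozygous females, a difference that did not pass after Benjamini-Hochberg adjustment over the 4 sex comparisons (exact permutation p = 0.0221, adjusted 0.0882). RS903, at 16.6%, was the highest of these animals and RS918, at 14.2%, lay below 2 females. The difference was 0.0341 without RS903 and 0.0581 without RS918. With 1 male left the exact test could not have passed, so no p is given. At the GSTM3 SNP the males had 0.525 and the 7 females 0.445 (exact permutation p = 0.528, adjusted 0.699). Leaving out RS918 turned the direction of both levels and of the GSTM3 share.

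Level and allele share were compared over heterozygous animals in 3 relations, and none passed. For GSTM3, r was 0.58 over 9 animals (exact permutation p = 0.101, adjusted 0.143; Spearman rho = 0.48, exact permutation p = 0.194), and 0.62 without the 2 animals farthest from the median share. For A44692877G of GSTP1, r was 0.43 over 13 animals (permutation p = 0.143, rho = 0.51, permutation p = 0.0768) and fell to -0.10 without the farthest 2, so it rested on those animals. Over all 18 animals, whatever their call, it turned to -0.18 (permutation p = 0.482). It passed without RS918 (r = 0.58, unadjusted permutation p = 0.0449). For G44694903A, r was -0.44 over 18 animals (permutation p = 0.0666, rho = -0.33, permutation p = 0.178) and -0.05 without the farthest 2, so it too rested on single animals. It passed without RS929 (r = -0.49, unadjusted permutation p = 0.0432). Adjusted values of Spearman's p were 0.194 for each relation and of Pearson's p 0.143.

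Among 5783 other genes compared over the 18 animals, the 5 whose log2 level followed GSTP1 most closely were PLTP, the phospholipid transfer protein of plasma (r = 0.80), FTO, an RNA demethylase (r = 0.72), MBTPS1, the protease that cleaves SREBP factors (r = 0.70), PID1 (r = 0.70) and SPINT2, a protease inhibitor (r = 0.70). For GSTM3 they were CA4, a membrane carbonic anhydrase (r = 0.84), RPS3A, a protein of the small ribosomal subunit (r = 0.74), RPP21, a subunit of RNase P (r = 0.73), C12orf29 (r = 0.72) and PIGC, which acts in GPI anchor synthesis (r = 0.71). These are the highest of many correlations over the same 18 libraries and are given as a description.

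Other enzymes of the glutathione system gave a background for both genes. Of the 30 further cytosolic glutathione transferases and proteins with a related fold that were listed, 6 had SNPs in the table. Of their 18 SNPs 6 passed the likelihood ratio test (33.3%, against 45.0% of all tested SNPs), 5 with the reference and 1 with the alternate allele higher. GSTA4, which conjugates the lipid aldehyde hydroxynonenal, lay at 0.513 ± 0.0596 (SD over 13 heterozygous animals) and GSTK1, the mitochondrial and peroxisomal kappa class enzyme, 0.502 ± 0.0206 (SD, n = 8), and none of the 3 SNPs in these genes passed. GSTA1, an alpha class enzyme, passed at 1 of 4 SNPs, where shares ranged from 0.138 to 0.778 over 11 heterozygous animals with a mean of 27.5 reads at the SNPs of the gene. EEF1G, a translation elongation factor subunit with a transferase-like domain, passed at all 3 of its SNPs (0.533 ± 0.00939, n = 18 at the SNP with the largest statistic), and the tRNA synthetases MARS and VARS passed at 1 of 5 and 1 of 3. In the MAPEG family of membrane-bound transferases all 6 SNPs of MGST1, MGST2 and MGST3 passed. MGST3 had the reference allele higher in each of 9 heterozygous animals, with shares from 0.604 to 0.717 and a mean of 0.636 ± 0.0343 (SD, n = 9). MGST2 had 0.618 ± 0.0896 (SD, n = 7) at its top SNP. MGST1 had 0.489 ± 0.0270 (SD, n = 16), near an equal share, at a mean of 3520 reads over its SNPs.

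Genes of glutathione synthesis and breakdown passed at 30 of 79 SNPs (38.0%), 26 with the reference and 4 with the alternate allele higher. Of all tested SNPs 45.0% passed, 33.8% with the reference and 11.1% with the alternate allele higher, so the reference allele was more often higher there too. Farthest from an equal share were ANPEP, a membrane aminopeptidase (mean share 0.616 ± 0.140, n = 14), and LANCL2 (0.615 ± 0.0821, n = 8). Genes that reduce glutathione and remove peroxides passed at 49 of 66 SNPs (74.2%, against 45.0% of all tested SNPs), 39 and 10 in each direction. IDH1 alone held 18 of the 49, at a mean of 3651 reads. The median distance of this list from an equal share was 0.0317, against 0.0339 over all tested SNPs. Farthest in this list were IDH1, the cytosolic NADP-dependent isocitrate dehydrogenase (0.873 ± 0.00993, n = 6), and TXN2, the mitochondrial thioredoxin (0.806 ± 0.0580, n = 9). In called homozygotes at the IDH1 SNPs, up to 2.92% of reads came from the other allele. That is the highest value over its 20 SNPs and need not belong to the SNP given. Genes of conjugate export and aldehyde removal passed at 28 of 52 SNPs (53.8%), 25 and 3 in each direction, led by the export pumps ABCC1 (0.655 ± 0.107, n = 10) and ABCC3 (0.642 ± 0.0455, n = 6). Regulators and targets of NRF2, the transcription factor that induces many of these enzymes, passed at 25 of 51 SNPs (49.0%), 14 and 11 in each direction. TALDO1, transaldolase (0.123 ± 0.0197, n = 18), and FTH1, the ferritin heavy chain (0.788 ± 0.00958, n = 18), were farthest. At both SNPs all 18 animals were called heterozygous, as at 5.42% of all SNPs, so no homozygote was there to check the calls. In this list 20 of 51 SNPs were heterozygous in 15 or more animals, against 9.89% of all SNPs. Over all listed genes 144 of 272 SNPs passed, 52.9%, and the median distance from an equal share was 0.0360, against 45.0% and 0.0339 over all tested SNPs. At these list SNPs the median dispersion was 1.63, below the 81.2 of the GSTM3 SNP, but single list SNPs came nearer to it. At the SNP with the largest statistic the dispersion was 61.6 in ALDH9A1 (shares from 0.481 to 0.785, n = 12). In TKT it was 37.0 (n = 16).

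Whether reads from a similar sequence elsewhere in the genome entered the GSTP1 counts was not tested, since no genome sequence was used. The values beside which that question stands are the reads of both alleles in all 18 animals at 14 of its 15 SNPs and the close runs of neighbouring SNPs, neither of which applied to the GSTM3 SNP, where 9 animals were called homozygous and no SNP lay within 5 bp.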

How the data were processed

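RNA of 18 libraries was sequenced as paired end 100 bp reads. The authors aligned the reads to Oar v3.1 with STAR, allowing up to 10 mismatches and keeping unique positions, called SNPs and genotypes from the same reads with GATK (version 3.4-46 in the submitters' processing notes), and kept SNPs in genes with 10 or more reads of both alleles in at least 5 animals. They deposited raw read counts of each allele per SNP and animal, without normalization, and a genotype call. The deposited table also holds the authors' statistic, P-value and share for each SNP, which were not used. The table column written PS910 was taken as the animal labelled RS910, as no other label holds that number.

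The members and gene lists were chosen with earlier results of these data known. Any SNP of both genes could be named, and the SNP of each block with the largest statistic was given over all animals. The likelihood ratio statistic, 2 times the log likelihood ratio on reads summed over animals called heterozygous, and the Pearson chi-square between animals were computed over the whole table with Python 3.11.15 and SciPy 1.17.1, and the quasi-binomial F test with limma 3.58.1. These were tested on simulated data. Sexes were compared by exact permutation and correlations by exact permutation below 10 animals and 100000 resamples otherwise. Other listed genes were named for the transferases and, in each other list, the 2 genes whose SNP with the largest statistic lay farthest from an equal share, and the 5 genes most alike in level by Pearson's r. ALDH9A1 and TKT were named for their dispersion, outside these rules. The likelihood ratio test takes no account of the spread between animals, whereas the quasi-binomial F test and the permutation tests do. Alternatives were a minimum of 30 reads, another null share, adjusted P, animals of any call, down-sampling to 50 reads in 20 rounds, females alone, another SNP of a block, another scaling and leaving out each animal.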

Additional observations from a re-analysis of the deposited data

Results flagged for a closer look

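At the 4 SNPs of the first GSTP1 block, animals called homozygous for the alternate allele take no part in the test of imbalance, yet held reads of the reference allele above the limit that a count of 0 allows. These reads were 7.31% of all reads of 5 such animals at A44692877G, 4.85% in 1 animal at C44692878T, and 6.68% in 3 animals at C44692879T and also in 3 at G44692881A. The median over all SNPs with called homozygotes was 0%. Among the 9 heterozygous animals of GSTM3, the 1 group of a size that was examined, no animal stood apart from the rest.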

How the results depend on the processing

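Of the values under alternatives other than leaving out 1 animal, 52 were classed as the same, 8 as moved, 3 as reversed and 2 as weaker. Some of the 52 are counts of SNPs, which have no direction or side of a threshold and could still change. With the quasi-binomial F test, for example, 8314 of all SNPs passed, against 10901 in the main setting. With a minimum of 30 reads of each allele, 7 GSTP1 SNPs passed, 2 with the reference and 5 with the alternate allele higher, and 5667 of all SNPs passed, since fewer SNPs were left. No SNP of the first block was left, as too few animals had 30 reference reads there. These counts can therefore not be set beside those of the main setting. Counting animals of any call, 22518 SNPs passed and 22952 were heterogeneous, as homozygous animals enter. That setting moved the GSTM3 summed share to 0.503, the correlation between GSTP1 blocks to 0.23 and that of the first block with level to -0.18. For GSTM3 the share lost its call with the quasi-binomial F test (share 0.483, unadjusted P = 0.676) and after down-sampling (0.464). Down-sampling left 1 GSTP1 SNP and 1009 of all SNPs heterogeneous, by its lower depth.

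Leaving out each animal gave 0.441 to 0.518 for the GSTM3 share, which lost its call without RS903 or RS926 and turned without RS917 or RS953. For males minus females it gave -0.26 to 0.13 (GSTP1 level), 0.0341 to 0.0581 (GSTP1 share), -0.71 to 0.99 (GSTM3 level) and -0.0573 to 0.217 (GSTM3 share). The correlation between blocks ranged from -0.137 to 0.0439, above 0 without RS902 (0.0353), RS930 (0.0151) or RS940, and correlations with level from 0.26 to 0.58 (first block) and -0.49 to -0.20 (second block). The first passed without RS918 and the second without RS929, before adjustment. The cause was not tested. No paired analysis was possible because the labels number the animals once through and no groups share them. Of the GSTP1 SNPs, C44694805T had the lowest mean depth (42.3 reads), which limits shares of single animals there. Use of the deepest SNP was not run for GSTM3, which has 1 SNP, nor animals of any call for its share by sex and with level.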
